A study of Mus musculus with 17 samples.

Results

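The nuclear genes of the respiratory chain and ATP synthase were described in ribosome-bound RNA of the mouse corpus callosum, the white matter tract that joins the cerebral hemispheres. Members were chosen by gene symbol alone, among protein-coding genes. Symbols of complex I begin with Ndufa, Ndufb, Ndufc, Ndufs or Ndufv followed by a digit. Complex II was Sdha, Sdhb, Sdhc and Sdhd. Symbols of complex III begin with Uqcr or are Cyc1. Those of complex IV begin with Cox4 to Cox8 followed by a, b, c or i. Those of complex V, the ATP synthase, begin with Atp5, leaving out Atp5s and Atp5sl. Assembly factors such as Ndufaf1 and Sdhaf1 are thus not members, nor is Ndufab1. The rule found 85 gene identifiers with 84 symbols among the 58512 identifiers in the files. Of these, 37 belong to complex I, 4 to complex II, 9 to complex III, 18 to complex IV and 17 to complex V. Male mice of genotype GFAP-Cre+/- Rpl22HA/wt carried the ribosomal protein Rpl22 with an HA tag in cells where Cre recombinase under the GFAP promoter had been active, so that tagged ribosomes could be pulled down with their RNA. For 5 weeks, cuprizone mice aged 8 to 9 weeks were given 0.2% of this compound in their chow, which binds copper and causes loss of oligodendrocytes and myelin. They were sampled at 5 weeks (acute demyelination), at 5.5 weeks (early remyelination, 0.5 weeks after withdrawal) or at 7 weeks (late remyelination, 2 weeks after withdrawal). Mock mice of the same age and genotype stayed on normal diet at each time. All groups, mock included, carry both transgenic alleles. The labels do not say whether tissue of several mice was pooled, nor which GFAP-Cre line was used.

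The respiratory chain passes electrons from NADH through complex I, or from succinate through complex II, to complex III and then to complex IV, where oxygen is reduced. Complexes I, III and IV pump protons across the inner mitochondrial membrane, and complex V uses the proton gradient to make ATP. Most subunits are encoded in the nucleus, while a few central ones of complexes I, III, IV and V are encoded in the mitochondrial genome. Complex IV needs copper for its catalysis, which is why it is often discussed where a copper chelator is given. Astrocytes carry a working respiratory chain but are known for high glycolysis.

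The files hold 17 libraries, of which 8 repeat another library of their own group plus small whole numbers and are not independent. The 9 libraries used are 3 cuprizone (1, 2 and 3) and 2 mock (1 and 3) at 5.5 weeks, and 1 cuprizone and 1 mock library at each of 5 and 7 weeks. Their total counts ranged from 20797535 to 30400048. The 7-week cuprizone library stood apart, with 34576 genes detected, against at most 23980 in the other 8. At 5.5 weeks the summed level of 10 astrocyte markers was 15255 ± 1277 CPM (counts relative to a common library size, scaled by TMM within each week) in cuprizone libraries and 10809 ± 353 CPM in mock libraries (SD, n = 3 and 2). Gfap, an intermediate filament gene that is high in reactive astrocytes, made most of this gap, with 6066, 5264 and 4947 CPM in cuprizone libraries 1, 2 and 3, against 1176 and 1115 CPM in mock libraries 1 and 3. Without it the other 9 summed to 9829 ± 863 CPM in cuprizone libraries and 9663 ± 396 CPM in mock libraries. The summed level of 10 oligodendrocyte markers was 21273 ± 2211 CPM in cuprizone libraries and 16195 ± 512 CPM in mock libraries. For 10 neuron markers it was 8317 ± 487 CPM in cuprizone libraries and 8451 ± 324 CPM in mock libraries. No marker of these 3 lists was at 0 in any library, and at 5.5 weeks the oligodendrocyte list had the highest sum of the 3 in both groups. The values below are those of the whole precipitate, in which fewer cells of a type and less RNA per cell cannot be told apart.

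At 5.5 weeks nearly every respiratory chain gene was somewhat lower in cuprizone libraries, by a small and similar amount, but no single gene passed the test. The median log2 fold change of the 81 members tested was -0.28, which is 17.7% lower, while the median over all 16086 genes tested was 0.00. Of the 81 members, 80 had a value below 0, against 49.6% of all genes tested. Cox6b2, a testis isoform of a complex IV subunit, was the exception at 0.16 ± 0.33 (SE). In 62 of the 81, all 3 cuprizone libraries lay below both mock libraries, against 14.8% of all genes tested. In none did all 3 lie above both, against 13.2% of all genes.

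No member passed edgeR's quasi-likelihood test at an adjusted p of 0.05, in either direction. Over all genes tested, 0.392% were called lower and 1.08% higher. At an unadjusted p under 0.05, 46 of the 81 members were lower and 0 higher, against 4.64% and 6.27% of all genes. DESeq2 called 1 member, Ndufs6, and limma-voom called 0. The count of 46 rests on single libraries: it was 8 without mock library 3, 18 without cuprizone library 1 and 50 without mock library 1. The median was -0.19 without mock library 3 and -0.39 without mock library 1. The 4 members that were not tested were Ndufa4l2, Cox8b, Cox8c and a second Atp5o identifier. Cox8c and the second Atp5o identifier had no count in any library used.

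The sum over all members was 13707, 14419 and 14632 CPM in cuprizone libraries 1, 2 and 3, against 16160 and 17183 CPM in mock libraries 1 and 3. Every cuprizone library was below both mock libraries, and the ratio of the means was 0.855. For complex I the sum was 4571, 4890 and 4763 CPM in cuprizone libraries 1, 2 and 3, against 5464 and 5968 CPM in mock libraries 1 and 3, a ratio of 0.829. For complex III the ratio was 0.831, with the cuprizone libraries at 1944, 1958 and 1976 CPM and both mock libraries at 2358 CPM. These were the complexes with the lowest ratios. Complex IV had a ratio of 0.845 and complex V one of 0.876. Complex II had the ratio closest to 1, at 0.927, from 1514, 1480 and 1541 CPM in cuprizone libraries 1, 2 and 3, against 1618 and 1645 CPM in mock libraries 1 and 3. In each of the 5 complexes the cuprizone libraries lay below both mock libraries.

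**Figure D1:**
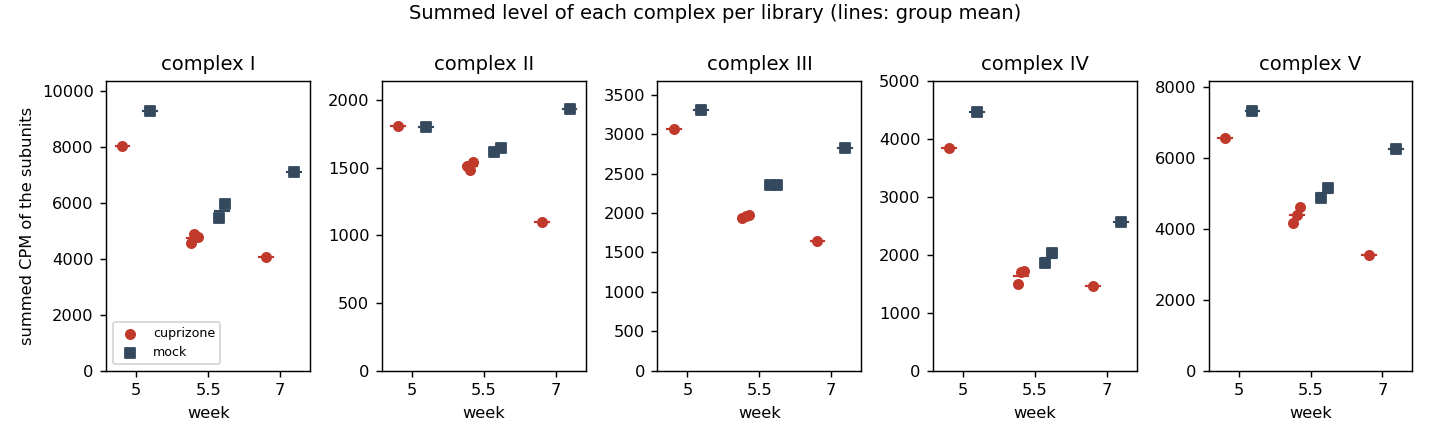
Summed level of the subunits of each complex (CPM, vertical axis from 0) in each library at 5, 5.5 and 7 weeks, with cuprizone libraries as red circles left of mock libraries as dark squares and a line at the group mean. In complexes I, III, IV and V the cuprizone points lie below the mock points at every week, while in complex II at 5 weeks the cuprizone and mock points lie at 1808 and 1801 CPM. CPM were scaled within each week and the 5-week libraries are another batch, so levels should not be compared between weeks.

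**Figure D2:**
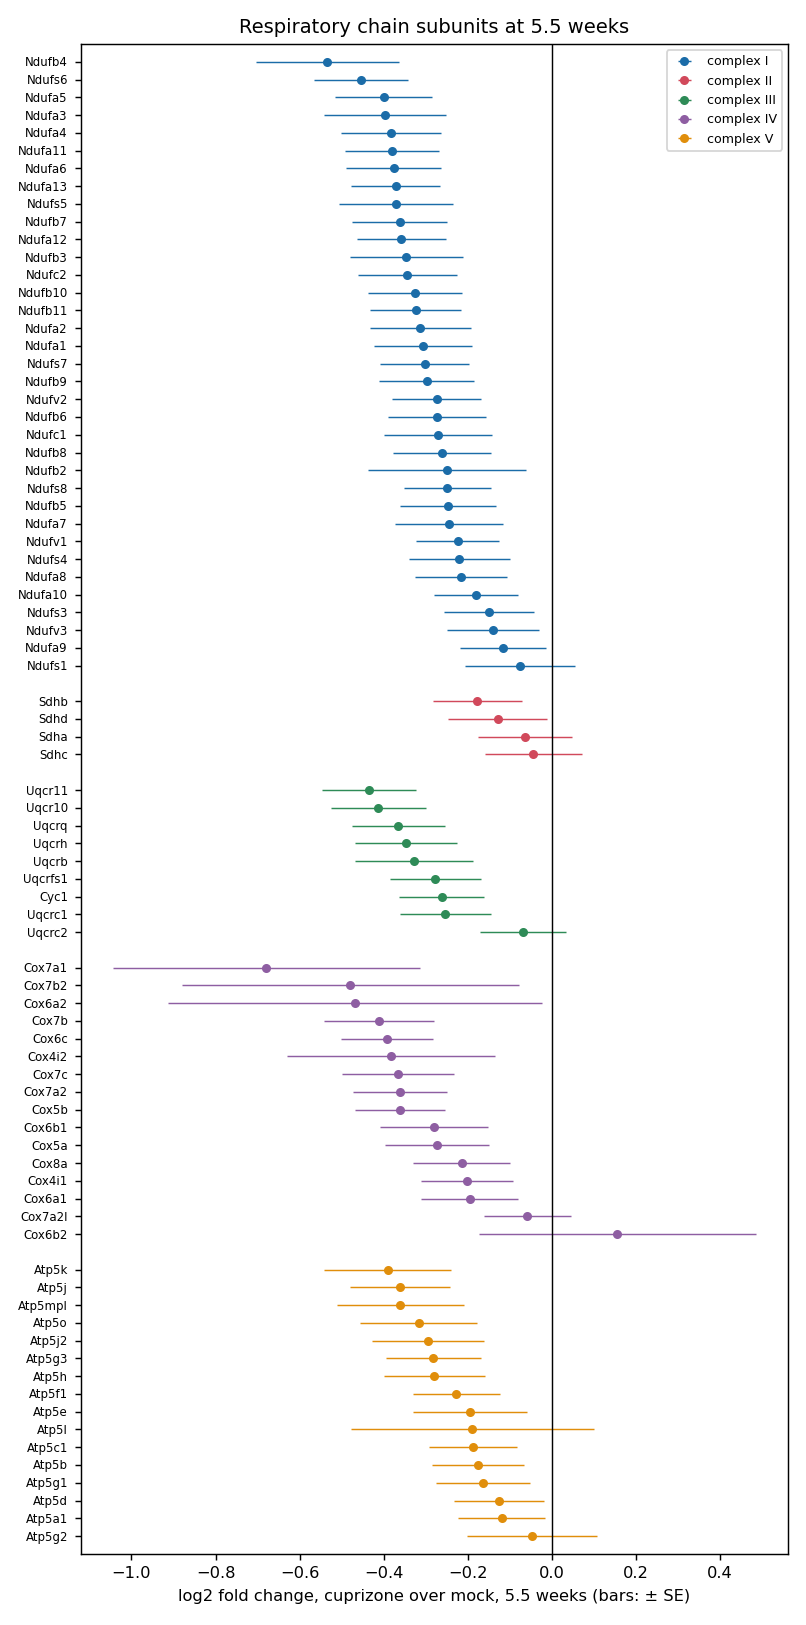
Log2 fold change (horizontal axis, cuprizone over mock at 5.5 weeks) with its standard error for 80 of the 81 subunits tested, ordered within complexes I to V. All but Cox6b2 lie left of 0, between -0.68 (Cox7a1) and -0.04 (Sdhc), and the 4 subunits of complex II lie between -0.18 (Sdhb) and -0.04 (Sdhc).

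Promoter sequences of 4 members are shown here. At 5.5 weeks Ndufs6 had the lowest adjusted p of all members, Uqcr11 and Atp5k the lowest fold change in complexes III and V, and Sdhd a value closer to 0. The sequences are RefSeq's for build GRCm38.p6, 250 bases before to 50 bases after the annotated start, read 5′ to 3′ on the gene's strand, which is minus for all 4. Capitals mark matches on either strand to 4 motifs: GCGCANGCG of the factor NRF1, CCGGAAG of ETS factors such as GABP, AAGATGGCG of YY1 and TCAAGGTCA of ERR. These factors are known regulators of nuclear genes for mitochondria. The windows lie at chr13:73328433-73328732, chr10:80406772-80407071, chr5:108434350-108434649 and chr9:50603800-50604099, in that order.
Ndufs6: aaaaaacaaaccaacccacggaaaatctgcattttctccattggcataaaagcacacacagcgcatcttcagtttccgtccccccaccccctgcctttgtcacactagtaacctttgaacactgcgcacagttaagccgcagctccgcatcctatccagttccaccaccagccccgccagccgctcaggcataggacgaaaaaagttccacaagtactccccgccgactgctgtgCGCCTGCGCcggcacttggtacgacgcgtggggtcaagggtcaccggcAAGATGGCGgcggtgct
Uqcr11: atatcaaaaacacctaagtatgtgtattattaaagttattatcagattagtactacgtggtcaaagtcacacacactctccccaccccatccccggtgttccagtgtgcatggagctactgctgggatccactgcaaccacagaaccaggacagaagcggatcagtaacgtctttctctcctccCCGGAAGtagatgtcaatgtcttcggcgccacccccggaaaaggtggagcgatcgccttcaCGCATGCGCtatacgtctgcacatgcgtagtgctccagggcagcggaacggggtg
Atp5k: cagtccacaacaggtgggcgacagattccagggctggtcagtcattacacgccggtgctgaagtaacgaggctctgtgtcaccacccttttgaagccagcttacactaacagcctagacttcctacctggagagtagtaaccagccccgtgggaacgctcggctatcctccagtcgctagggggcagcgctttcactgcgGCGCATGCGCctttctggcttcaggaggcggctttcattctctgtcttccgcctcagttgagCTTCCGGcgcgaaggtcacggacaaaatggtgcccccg
Sdhd: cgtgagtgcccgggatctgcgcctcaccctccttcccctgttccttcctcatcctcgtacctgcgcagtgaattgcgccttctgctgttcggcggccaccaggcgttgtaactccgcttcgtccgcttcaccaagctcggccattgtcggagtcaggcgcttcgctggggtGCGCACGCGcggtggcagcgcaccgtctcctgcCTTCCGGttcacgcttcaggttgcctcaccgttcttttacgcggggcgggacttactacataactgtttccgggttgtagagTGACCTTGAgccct

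The windows of Ndufs6 (NRF1 and YY1), Uqcr11 (NRF1 and ETS), Atp5k (NRF1 and ETS) and Sdhd (NRF1, ETS and ERR) each hold matches to more than 1 motif. Most members with a promoter entry held at most 1 of the 4 motifs, so these windows are not typical. Of the members, 66 symbols had a promoter entry, and 35 of them held at least 1 of the 4 motifs. NRF1 matches were found in 20 of the 66, or 30.3%, against 7.03% of 27025 genes with an entry. For ETS the shares were 24.2% of the members and 9.93% of genes, for YY1 10.6% and 1.64%, and for ERR 3.03% and 0.466%. Matches of different motifs overlapped in none of the 71 promoter entries of the members, while NRF1 matches on the 2 strands, nearly the same letters, overlapped in 5. Members with and without a match had close values. The median at 5.5 weeks was -0.30 over 20 tested members with an NRF1 match and -0.27 over 45 without, and -0.26 over 16 with an ETS match and -0.29 over 49 without.

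Complex I had 36 members tested and a median log2 fold change of -0.30, with 24 at an unadjusted p under 0.05. All 36 were below 0, and in 32 the cuprizone libraries lay below both mock libraries. Ndufs6, an accessory subunit of the matrix arm, had 58.5, 61.8 and 59.2 CPM in cuprizone libraries 1, 2 and 3, against 75.9 and 88.0 CPM in mock libraries 1 and 3. Its log2 fold change was -0.45 ± 0.11 (SE), with an adjusted p of 0.080 by edgeR, the lowest of any member. The groups did not overlap, and the 3 cuprizone values were close to each other. Ndufb4, an accessory subunit of the membrane arm, had 12.4, 14.3 and 15.8 CPM in the cuprizone libraries, against 17.2 and 23.8 CPM in the mock libraries. Its log2 fold change was -0.53 ± 0.17 (SE), the lowest in complex I, with an adjusted p of 0.21. Here mock library 3 stood well above mock library 1.

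The 7 core subunits of complex I, which carry flavin, iron-sulphur clusters or the quinone site, had a median of -0.22, and the 29 accessory subunits tested had a median of -0.32. Among the core subunits, Ndufv1, the flavin subunit that takes electrons from NADH, had 332, 332 and 334 CPM in the cuprizone libraries, against 395 and 383 CPM in the mock libraries. Ndufv2, its iron-sulphur partner, had 326, 336 and 328 CPM in the cuprizone libraries, against 371 and 426 CPM in the mock libraries. In both genes the groups did not overlap, with log2 fold changes of -0.22 ± 0.10 and -0.27 ± 0.11 (SE) and adjusted p of 0.44 and 0.35. Ndufs1, the largest core subunit, had 126, 114 and 144 CPM in the cuprizone libraries, against 149 and 121 CPM in the mock libraries. Its groups overlapped, and its fold change of -0.08 ± 0.13 was the closest to 0 in complex I. Ndufa9, an accessory subunit near the quinone site, was next at -0.12 ± 0.10, with 145, 152 and 156 CPM in the cuprizone libraries, against 169 and 158 CPM in the mock libraries. Ndufa4, named for complex I and since also assigned to complex IV, had 215, 245 and 244 CPM in the cuprizone libraries, against 275 and 337 CPM in the mock libraries, a log2 fold change of -0.38 ± 0.12 without overlap. The other accessory subunits tested ranged from -0.40 (Ndufa5) to -0.14 (Ndufv3). Overlapping groups were found for Ndufs1, Ndufb2, Ndufc1 and Ndufv3.

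Complex II, the succinate dehydrogenase of the citric acid cycle, has no subunit from the mitochondrial genome. Its 4 members had a median of -0.10, and none had an unadjusted p under 0.05. Sdha, the flavin subunit, had 714, 613 and 690.4 CPM in cuprizone libraries 1, 2 and 3, against 731 and 674 CPM in mock libraries 1 and 3. Sdhb, the iron-sulphur subunit, had 534, 571 and 526 CPM in the cuprizone libraries, against 588 and 642 CPM in the mock libraries. Of the 4, Sdhb alone had all cuprizone libraries below both mock libraries, with a log2 fold change of -0.18 ± 0.11 (SE). The membrane anchors Sdhc and Sdhd had overlapping groups. Sdhc had 138, 150.2 and 165 CPM in the cuprizone libraries, against 147 and 165 CPM in the mock libraries, and Sdhd 128, 146 and 159.8 CPM in the cuprizone libraries, against 152 and 164 CPM in the mock libraries. The fold changes were -0.06 ± 0.11 for Sdha, -0.04 ± 0.11 for Sdhc and -0.13 ± 0.12 for Sdhd, and adjusted p by edgeR lay between 0.6 and 0.93 for the 4 genes. The promoter of Sdhd, shown above, holds 3 of the 4 motifs.

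Complex III had a median of -0.33 over 9 members, with 8 at an unadjusted p under 0.05 and the same number without overlap between groups. Its 5 small subunits had the lowest values, with a median of -0.37. Uqcr11 had 67.4, 77.7 and 74.6 CPM in cuprizone libraries 1, 2 and 3, against 94.2 and 104 CPM in mock libraries 1 and 3. Uqcr10, another small subunit, had 77.1, 87.0 and 85.5 CPM in the cuprizone libraries, against 103 and 119 CPM in the mock libraries. The other small subunits, Uqcrq, Uqcrh and Uqcrb, ranged from -0.37 to -0.33, without overlap. In Uqcr11 and Uqcr10, the lowest mock value was well above the highest cuprizone value. The log2 fold changes were -0.43 ± 0.11 for Uqcr11 and -0.41 ± 0.11 for Uqcr10 (SE), with adjusted p of 0.100 and 0.13. Cyc1, the cytochrome c1 that hands electrons to cytochrome c, had 304, 286 and 305 CPM in the cuprizone libraries, against 352 and 364 CPM in the mock libraries, a log2 fold change of -0.26 ± 0.10. The Rieske iron-sulphur protein Uqcrfs1 had 292, 314 and 306 CPM in the cuprizone libraries, against 343 and 394 CPM in the mock libraries, a log2 fold change of -0.28 ± 0.11. Neither had overlapping groups. The core proteins Uqcrc1 and Uqcrc2 form the matrix part of the complex and differed from each other: Uqcrc1 had 751, 713 and 711 CPM in the cuprizone libraries, against 925 and 805 CPM in the mock libraries, without overlap. Uqcrc2 had 211, 213 and 226 CPM in the cuprizone libraries, against 234 and 219.9 CPM in the mock libraries, with overlap. Their log2 fold changes were -0.25 ± 0.11 and -0.07 ± 0.10 (SE), and the difference between them was not tested.

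Complex IV had 16 members tested, with a median of -0.36, 15 values below 0, 10 without overlap and 6 at an unadjusted p under 0.05. The 11 common subunits, found in most tissues, had a median of -0.28. Cox4i1, which binds ATP and helps regulate the enzyme, had 537, 612 and 582 CPM in cuprizone libraries 1, 2 and 3, against 631 and 696 CPM in mock libraries 1 and 3. Cox6a1 had 202, 238 and 247 CPM in the cuprizone libraries, against 267 and 259 CPM in the mock libraries, and Cox8a 139, 167 and 167 CPM in the cuprizone libraries, against 175 and 191 CPM in the mock libraries. These 3 had the highest levels of the complex per kilobase of transcript, and in each the groups did not overlap, by a small margin. Their log2 fold changes were -0.20 ± 0.11, -0.20 ± 0.11 and -0.21 ± 0.12 (SE), with adjusted p of 0.56, 0.59 and 0.55. Cox7a2 had 73.3, 78.9 and 82.0 CPM in the cuprizone libraries, against 93.5 and 107 CPM in the mock libraries, a log2 fold change of -0.36 ± 0.11. Its relative Cox7a2l, which helps to join complexes III and IV into supercomplexes, had 101, 101 and 104 CPM in the cuprizone libraries, against 102 and 111 CPM in the mock libraries. Its values were nearly level across the 5 libraries and the groups overlapped, with a log2 fold change of -0.06 ± 0.10. The other common subunits ranged from -0.41 (Cox7b) to -0.27 (Cox5a), and of the 11 common subunits Cox7a2l and Cox5a had overlapping groups.

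The tissue isoforms of complex IV were low in these libraries. Cox4i2, the isoform known from lung, had 1.69, 2.48 and 2.11 CPM in the cuprizone libraries, against 2.42 and 3.01 CPM in the mock libraries. The heart and muscle isoforms Cox6a2 and Cox7a1 were at most 1.00 CPM in each 5.5-week library: Cox7a1 had 0.507, 0.542 and 0.499 CPM in the cuprizone libraries, against 0.658 and 1.00 CPM in the mock libraries. The log2 fold change of Cox7a1, -0.68 ± 0.37 (SE), was the lowest of all members, but its adjusted p was 0.55 and its mean count in the 9 libraries 30.2. Cox7b2, a testis isoform, had 0.540, 0.632 and 0.461 CPM in the cuprizone libraries, against 0.519 and 1.00 CPM in the mock libraries, and Cox6b2 0.912, 1.08 and 1.38 CPM in the cuprizone libraries, against 0.796 and 1.23 CPM in the mock libraries. Both had overlapping groups. Cox8b, the heart and muscle isoform, had at most 0.0742 CPM in any 5.5-week library. Per kilobase of transcript, which allows a rough comparison between genes, Cox4i1 stood at 764 ± 50.1 CPM per kilobase in cuprizone libraries and 879 ± 60.8 in mock libraries (SD, n = 3 and 2). Cox4i2 stood at 2.87 ± 0.544 CPM per kilobase in cuprizone libraries and 3.72 ± 0.565 in mock libraries. Cox7a2 had 118 ± 6.70 CPM per kilobase in cuprizone libraries and 152 ± 14.7 in mock libraries, Cox7a2l 92.5 ± 1.38 CPM per kilobase in cuprizone libraries and 96.4 ± 5.95 in mock libraries and Cox7a1 1.17 ± 0.0520 CPM per kilobase in cuprizone libraries and 1.89 ± 0.555 in mock libraries. The order of these isoforms by level was the same in both groups.

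Complex V had 16 members tested, a median of -0.21, 8 at an unadjusted p under 0.05 and 11 without overlap. The F1 head, which makes ATP, had a median of -0.18 over 5 subunits, and the c ring, which turns with proton flow, -0.16 over 3. The peripheral stalk had -0.30 over 4 and the small membrane subunits -0.33 over 4. Atp5b, the catalytic beta subunit, had 1266, 1280 and 1430 CPM in cuprizone libraries 1, 2 and 3, against 1519 and 1474 CPM in mock libraries 1 and 3. Atp5a1, the alpha subunit, had 961, 997 and 1030 CPM in the cuprizone libraries, against 1070 and 1094 CPM in the mock libraries, and Atp5c1, the gamma subunit of the central shaft, 366, 381 and 400.1 CPM in the cuprizone libraries, against 418 and 453 CPM in the mock libraries. None of these 3 overlapped, and their log2 fold changes were -0.18 ± 0.11, -0.12 ± 0.10 and -0.19 ± 0.10 (SE). Atp5k, a small membrane subunit, had 14.6, 19.1 and 16.7 CPM in the cuprizone libraries, against 20.2 and 23.8 CPM in the mock libraries. Atp5j, of the peripheral stalk, had 175, 202 and 199.8 CPM in the cuprizone libraries, against 224 and 270.2 CPM in the mock libraries. These had the lowest fold changes of the complex, -0.39 ± 0.15 for Atp5k and -0.36 ± 0.12 for Atp5j, with adjusted p of 0.34 and 0.23. Overlapping groups were found for Atp5d, Atp5g1, Atp5g2, Atp5l and Atp5o. The members outside the F1 head, Atp5k, Atp5j and the c ring ranged from -0.36 (Atp5mpl) to -0.19 (Atp5l).

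The c ring subunit is encoded by 3 genes for the same mature protein. Atp5g3 had 242, 279 and 284 CPM in the cuprizone libraries, against 309 and 343 CPM in the mock libraries, without overlap. Atp5g1 had 144, 144 and 166 CPM in the cuprizone libraries, against 161 and 179 CPM in the mock libraries, and Atp5g2 9.26, 9.89 and 11.3 CPM in the cuprizone libraries, against 10.2 and 10.7 CPM in the mock libraries, both with overlap. Their log2 fold changes were -0.28 ± 0.11, -0.16 ± 0.11 and -0.05 ± 0.16 (SE). Per kilobase of transcript, Atp5g3 stood at 373 ± 32.0 CPM per kilobase in cuprizone libraries and 454 ± 33.3 in mock libraries (SD, n = 3 and 2), Atp5g1 at 56.6 ± 4.63 CPM per kilobase in cuprizone libraries and 63.4 ± 4.71 in mock libraries and Atp5g2 at 17.3 ± 1.81 CPM per kilobase in cuprizone libraries and 17.9 ± 0.577 in mock libraries. Atp5g3 was the most abundant of the 3 and the one with the lowest fold change. The transcript lengths used were 718.5 bases for Atp5g3, 2675.5 for Atp5g1 and 586 for Atp5g2, so the gaps per kilobase depend on the annotation. Some members have near-identical copies elsewhere in the genome, so their counts are uncertain where reads match both, which was not examined. These are Ndufs3, Ndufs5, Uqcrb, Cox7c, Atp5g1, Atp5g2, Atp5h, Atp5o and Atp5l. For Atp5l the copies held 137 counts, or 67.8% of the 202 counts of the gene itself. The median was -0.28 over the 9 members with a copy and -0.28 over the 72 without.

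The sums of the complexes can also be set against each other within a library, which no scaling affects. Complex I over complex II was 3.02, 3.30 and 3.09 in cuprizone libraries 1, 2 and 3, against 3.38 and 3.63 in mock libraries 1 and 3. Complex III over complex II was 1.28, 1.32 and 1.28 in cuprizone libraries, against 1.46 and 1.43 in mock libraries. Neither ratio overlapped between the groups. Complex IV over complex II overlapped, at 0.996, 1.15 and 1.12 in cuprizone libraries and 1.15 and 1.24 in mock libraries. All members over glycolysis genes gave 0.796, 0.825 and 0.844 in cuprizone libraries, against 0.909 and 0.915 in mock libraries, and all members over citric acid cycle genes 2.78, 3.10 and 2.91 in cuprizone libraries, against 3.12 and 3.37 in mock libraries. Both kept the groups apart, the second by a small margin. All members over cytosolic ribosomal proteins overlapped, at 3.75, 3.56 and 3.50 in cuprizone libraries and 3.86 and 3.73 in mock libraries. All members over mitochondrial ribosomal proteins overlapped likewise, at 3.42, 3.48 and 3.57 in cuprizone libraries and 3.71 and 3.51 in mock libraries.

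Other lists of mitochondrial genes had medians closer to 0 at 5.5 weeks, and no gene of the following lists passed the test. The differences between lists were not tested. Assembly factors had a median of -0.16 over 38 tested, from -0.44 for Cox20 to 0.24 for Coa5, with 4 lower and 0 higher at an unadjusted p under 0.05. Genes that deliver copper to complex IV had -0.17 over 8, from -0.54 for the copper chaperone Cox17 to 0.15 for Cox11, with 0 at that p. Partners that the symbol rule leaves out, such as cytochrome c (Cycs), had -0.26 over 6, with 3 lower, from -0.38 for the ATP synthase inhibitor Atpif1 to -0.17 for Higd1a. The partners lay closest to the subunits themselves. The citric acid cycle had -0.07 over 17, from -0.25 for Idh3b to 0.27 for Suclg2, with 2 lower and 1 higher. Import and carrier genes had -0.19 over 20, from -0.30 for Hspe1 to 0.18 for Tomm70a, with 2 lower. Regulators of mitochondrial biogenesis had -0.07 over 15, from -0.26 for Esrra to 0.30 for Pprc1, with 0 at that p. Glycolysis, outside the mitochondrion, had -0.12 over 18, from -0.29 for Ldhb to 0.23 for Hk2, with 1 lower. Mitochondrial ribosomal proteins had -0.17 over 77, from -0.49 for Mrpl42 to 0.06 for Mrpl1, with 17 lower, and cytosolic ones -0.20 over 78, the lowest being -0.85 for Rps10, with 15 lower.

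The subunits also moved together between libraries of the same group. The median log2 ratio over the 81 members of mock library 1 over mock library 3 was -0.19, with 70 of 81 below 0. Cuprizone library 1 over 2 had -0.12 and 1 over 3 had -0.13, while 2 over 3 had 0.00. The 6 ratios of a cuprizone over a mock library ranged from -0.46 (cuprizone 1 over mock 3) to -0.13 (cuprizone 3 over mock 1). All 6 were below 0. Those of cuprizone 3 over mock 1 (-0.13) and cuprizone 2 over mock 1 (-0.14) were smaller than the shift between the mock libraries, and the rest were larger. Cytosolic ribosomal proteins shifted along with the subunits between the mock libraries, at -0.20, and other short protein-coding genes likewise, at -0.18. Their part in the lower values after cuprizone was not tested.

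**Figure D3:**
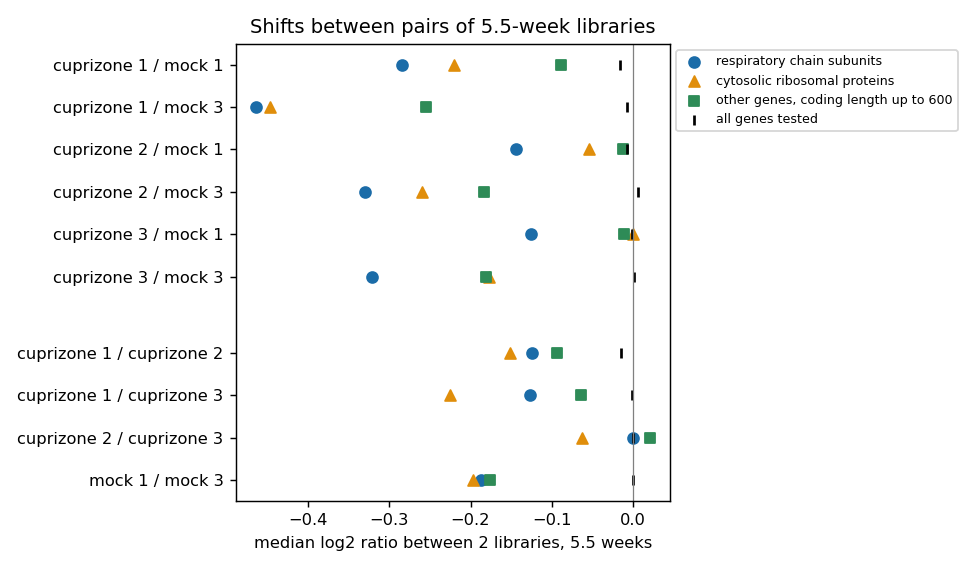
Median log2 ratio (horizontal axis) between pairs of 5.5-week libraries for the respiratory chain subunits (circles), cytosolic ribosomal proteins (triangles), other protein-coding genes of up to 600 coding bases (squares) and all genes tested (ticks), with cuprizone over mock pairs above and pairs of 1 group below. The subunits lie between -0.46 and -0.13 in the cuprizone over mock pairs and at -0.19 for mock 1 over mock 3, while all genes stay near 0.

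Most members are short genes, and short genes had lower values in general. The coding length of the members had a median of 408 bases (156 to 2181), against 1431 for the other protein-coding genes tested. By length, the median log2 fold change of members was -0.37 up to 300 bases, -0.28 over 300 and up to 600, -0.24 over 600 and up to 1200 and -0.14 above 1200. Other protein-coding genes had -0.14, -0.11, -0.04 and 0.06 in the same classes. The members were thus below other genes in each class, and both series climbed with length. Across the 81 members, which share the same 5 libraries, Pearson's r between log2 coding length and log2 fold change was 0.52 and Spearman's rho 0.58. The part of length in the result was not tested.

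**Figure D4:**
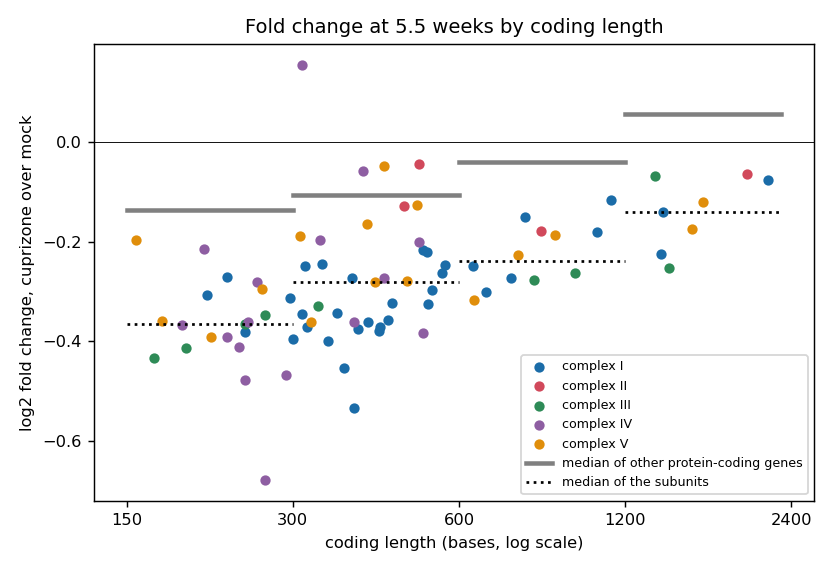
Log2 fold change at 5.5 weeks (vertical axis, cuprizone over mock) against coding length (horizontal axis, bases, log scale) for 80 of the 81 subunits tested, coloured by complex. Dotted lines give the median of all 81 by length class (-0.37, -0.28, -0.24 and -0.14) and grey lines that of other protein-coding genes (-0.14, -0.11, -0.04 and 0.06).

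At 5 weeks, at the end of cuprizone feeding, most subunits were again slightly lower in the cuprizone library. With 1 library per group there is no replicate check, and the intervals given are 95% Clopper-Pearson intervals that cover counting error only. The median log2 ratio of the 76 members measured was -0.21, which is 13.5% lower, against -0.01 for all 11570 genes measured. Values below 0 were found in 65 of the 76, against 50.5% of all genes. The ratio was at least 1.5-fold lower for 2 members, against 20.4% of all genes, and at least 1.5-fold higher for 0, against 18.5%. None was 2-fold lower, against 12.2%, or higher, against 8.82%. The members kept to a narrow range, from -0.69 to 0.27. With totals alone in place of TMM scaling, the median was 0.10 for all genes and -0.11 for the members, with 57 of 76 below 0, and the members' median less that of all genes stayed at -0.21, against -0.20 with TMM. The sum over all members was 23298 CPM in the cuprizone library, against 26215 CPM in the mock library.

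Markers of cell types also differed between the 5-week libraries. The 10 oligodendrocyte markers summed to 10489 CPM in the cuprizone library, against 15863 CPM in the mock library, with 6 at least 2-fold lower. The 10 neuron markers summed to 9457 CPM in the cuprizone library, against 13287 CPM in the mock library, with 9 below 0 on the log2 scale. The 10 astrocyte markers summed to 18995 CPM in the cuprizone library, against 9132 CPM in the mock library, with 5 below 0. Without Gfap they summed to 9311 CPM in the cuprizone library, against 8230 CPM in the mock library. Aldoc, also in the glycolysis list, alone had a larger gap, with 5817 CPM in the cuprizone library, against 4051 CPM in the mock library. The part of these differences in the lower subunit values was not tested.

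The lowest ratios at 5 weeks belonged to subunits of complexes V and I. Atp5o, of the peripheral stalk, had 105 CPM in the cuprizone library, against 169.8 CPM in the mock library (ratio 0.619, interval 0.586 to 0.652). Ndufb5, an accessory subunit, had 116 CPM in the cuprizone library, against 187 CPM in the mock library (ratio 0.620, interval 0.589 to 0.652), and Ndufa6, another, 172 CPM in the cuprizone library, against 256 CPM in the mock library (ratio 0.671, interval 0.643 to 0.700). The highest were Atp5e, the epsilon subunit of F1, with 156 CPM in the cuprizone library, against 129 CPM in the mock library (ratio 1.21, interval 1.15 to 1.27), and the complex II genes Sdha and Sdhc. Sdha had 699.9 CPM in the cuprizone library, against 587 CPM in the mock library (ratio 1.19, interval 1.16 to 1.22). Sdhc had 278 CPM in the cuprizone library, against 252 CPM in the mock library (ratio 1.10, interval 1.06 to 1.14). By complex, the medians were -0.23 for I, 0.02 for II, -0.11 for III, -0.22 for IV and -0.19 for V. All 11 complex IV subunits measured, each a common one, were below 0, from -0.48 for Cox5a to -0.10 for Cox6a1. Complex I over complex II was 4.43 in the cuprizone library and 5.16 in the mock library.

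At 7 weeks, 2 weeks after withdrawal, the subunits were lower in the cuprizone library by far more. The median log2 ratio of the 78 members measured was -0.87, which is 45.2% lower, against -0.18 for all 12200 genes measured. Below 0 were 75 of the 78, against 60.2% of all genes. At least 1.5-fold lower were 69, against 24.6% of all genes, and at least 2-fold lower 22, against 4.48%. At least 1.5-fold higher were 2, against 18% of all genes, and these 2 were also past 2-fold, against 10.5%. Short genes were lower in general here too. In the length classes used at 5.5 weeks, from short to long, members had medians of -0.90, -0.92, -0.80 and -0.64. Other protein-coding genes had -0.53, -0.54, -0.39 and -0.02. Over 300 and up to 600 bases, 547 of 1179 other genes were at least 1.5-fold lower, against 30 of 37 members. The part of length at 7 weeks was not tested. The sum over all members was 11534 CPM in the cuprizone library, against 20679 CPM in the mock library, a ratio of 0.558. The ratios by complex were close to each other, at 0.573 for I, 0.567 for II, 0.583 for III, 0.569 for IV and 0.521 for V. Complex II was as low as the others here, and complex I over complex II was 3.71 in the cuprizone library and 3.67 in the mock library.

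The size of the 7-week ratios depends on the scaling. With totals alone the median of all genes was 0.22, that of the members -0.48, and 25 members were at least 1.5-fold lower and 3 higher. The members' median less that of all genes was -0.69 with TMM scaling and -0.70 with totals alone. It was -0.44 with the deposited libraries of each group summed. The 7-week cuprizone library is also the one that stood apart. Its summed endothelial markers (7 genes) were 403 CPM, 20.2-fold the level in the mock library, its 10 microglial markers 1085 CPM, against 65.4 CPM in the mock library, and its 10 markers of pericytes and smooth muscle 315 CPM, against 38.4 CPM in the mock library. All 7 endothelial and all 10 microglial markers were at least 2-fold higher in it, and none of the 3 lists had a marker at 0 in it. The neuron and oligodendrocyte lists had lower sums in this library. The 10 neuron markers summed to 6638 CPM in the cuprizone library, against 10446 CPM in the mock library. Below 0 on the log2 scale were 6 of the 10, against 60.2% of all genes. Snap25 made most of this gap, with 3362 CPM in the cuprizone library, against 6758 CPM in the mock library. Gad1, Gad2, Slc17a7 and Syt1 were higher in the cuprizone library. The 10 oligodendrocyte markers summed to 14571 CPM in the cuprizone library, against 21042 CPM in the mock library, with 8 below 0. The 10 astrocyte markers summed to slightly more, 12476 CPM in the cuprizone library, against 12202 CPM in the mock library, with 6 below 0. Without Gfap they summed to 8904 CPM in the cuprizone library, against 10881 CPM in the mock library. Aldoc, also in the glycolysis list, made nearly all of this gap, with 4092.6 CPM in the cuprizone library, against 6064.5 CPM in the mock library. Median log2 ratios were -0.57 for the neuron list, -0.19 for the oligodendrocyte list and -0.07 for the astrocyte list, against -0.18 for all genes. Glycolysis genes had a median of -0.78, citric acid cycle genes -0.66, mitochondrial ribosomal proteins -0.67 and cytosolic ones -0.52. The part of these cell types in the result was not tested.

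The lowest ratios at 7 weeks were those of Cox7a2, Uqcrb and Atp5g3. Cox7a2 had 60.7 CPM in the cuprizone library, against 138 CPM in the mock library (ratio 0.439, interval 0.414 to 0.465). Uqcrb, a small subunit of complex III, had 36.2 CPM in the cuprizone library, against 80.4 CPM in the mock library (ratio 0.451, interval 0.418 to 0.486), and Atp5g3 198 CPM in the cuprizone library, against 438 CPM in the mock library (ratio 0.453, interval 0.438 to 0.467). Each was at least 2-fold lower. Sdhd, whose groups overlapped at 5.5 weeks, had 104 CPM in the cuprizone library, against 229 CPM in the mock library (ratio 0.453, interval 0.433 to 0.473). Ndufs6 had 1547 counts in the cuprizone library, against 2865 in the mock library (ratio 0.511, interval 0.480 to 0.543). The least lowered of the common subunits were Cox7a2l at -0.33 and Ndufs1 at -0.45 on the log2 scale.

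Against this general shift, 3 of the 78 members measured, those with a CPM of at least 5 in 1 library, were higher in the 7-week cuprizone library. Ndufa4l2, a relative of Ndufa4 known to be induced by hypoxia and to be high in mouse brain pericytes, had 214 counts in the cuprizone library, against 12 in the mock library (ratio 16.9, interval 9.45 to 33.1). At 5 weeks it had 7 counts in the cuprizone library, against 22 in the mock library, and at 5.5 weeks at most 0.361 CPM in any library. Its high value was thus confined to 1 library among the 9 used, the one whose pericyte and smooth muscle markers were 8.21-fold higher. Atp5l, a small membrane subunit of complex V with near-identical copies, had 5.54 CPM in the cuprizone library, against 2.03 CPM in the mock library (ratio 2.73, interval 1.99 to 3.79). Cox4i2, also known from mouse pericytes, had 5.08 CPM in the cuprizone library, against 3.38 CPM in the mock library (interval of the ratio 1.15 to 1.98), just under 1.5-fold on the log2 scale with its prior count (0.58). Under that limit on CPM, and named after their values were seen, Cox6a2 had 66 counts in the cuprizone library, against 27 in the mock library (ratio 2.31, interval 1.46 to 3.76). Cox6b2 had 45 counts in the cuprizone library, against 25 in the mock library (ratio 1.70, interval 1.02 to 2.90). The part of pericyte RNA in these values was not tested.

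**Figure D5:**
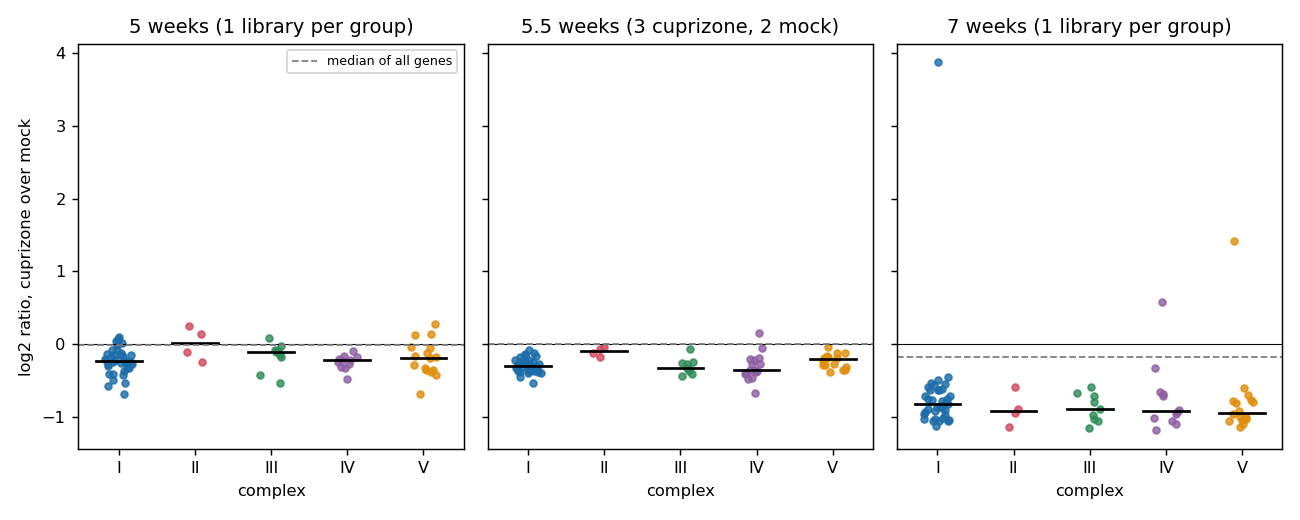
Log2 ratio of cuprizone over mock (vertical axis) for each subunit measured in complexes I to V (horizontal axis) at 5, 5.5 and 7 weeks, with a black bar at the median of each complex and a dashed line at the median of all genes. Medians lie between -0.23 and 0.02 at 5 weeks, between -0.36 and -0.10 at 5.5 weeks and between -0.94 and -0.82 at 7 weeks, where Ndufa4l2, Atp5l and Cox4i2 lie above 0.

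The mitochondrial genome encodes 13 further mRNAs of these complexes, of which 7 were tested at 5.5 weeks and measured at 5 and 7 weeks. The others, mt-Co2, mt-Co3, mt-Atp6, mt-Atp8, mt-Nd3 and mt-Nd4l, had at most 0.371 CPM in any 5.5-week library. By contrast, mt-Co1 had 83.3 to 113 CPM in these libraries. Why so many were nearly without counts was not tested, and the sums below come almost wholly from the 7. The summed level of the 13 at 5.5 weeks was 300.1, 431 and 307 CPM in cuprizone libraries 1, 2 and 3, against 369 and 377 CPM in mock libraries 1 and 3, with overlap. The median log2 fold change of the 7 tested was -0.11, from -0.23 for mt-Cytb to 0.01 for mt-Nd5. At 5 weeks the sum was 107 CPM in the cuprizone library, against 384 CPM in the mock library, and all 7 were at least 2-fold lower. At 7 weeks it was 3227 CPM in the cuprizone library, against 493 CPM in the mock library, with all 7 higher and 6 of them at least 2-fold. The nuclear members were lower at both weeks. These weeks have 1 usable library per group, and the 7-week cuprizone library is the one that stood apart. Whether the mitochondrial mRNAs were bound to tagged ribosomes was not tested.

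Levels of the subunits cannot be compared between 5 weeks and the later weeks, because the 5-week libraries form a batch of their own. The median log2 ratio over members of the 5-week mock library over the 5.5-week mock libraries was 0.89 (mock 1) and 0.70 (mock 3), although these mice received no cuprizone. By coding length it was 1.74 up to 300 bases, 0.80 over 300 and up to 600, 0.32 over 600 and up to 1200 and 0.17 above 1200, against 0.41, 0.27, 0.08 and -0.22 for other protein-coding genes. Within the later batch, the 7-week mock library over the 5.5-week mock libraries gave 0.30 (mock 1) and 0.10 (mock 3). The shifts between mock libraries of different batches were larger than those after cuprizone at 5 and 5.5 weeks (-0.21 and -0.28), and the largest within the later batch was about the size of these. The shift at 7 weeks was -0.87, or -0.69 after taking off the median of all genes. With the deposited libraries of each group summed, the latter was -0.44. In the pairs of the 7-week mock library with the 5.5-week ones, the median of all genes was 0.00. By each of these measures the 7-week shift was larger than those between mock libraries of its own batch. It rests on 1 library per group, and the cuprizone one is that which stood apart.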

How the data were processed

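Counts per Ensembl gene were deposited for 17 libraries of RNA from immunoprecipitated HA-tagged ribosomes. The authors' counts were made with featureCounts 1.6.0 after alignment with STAR 2.5.4b and quality control with FastQC 0.11.9, per the submitters' processing notes, without normalization. The notes name builds GRCm38 and GRCm39 without saying which was used, and the strand setting is not given in the sources used here, so reads of overlapping genes may be shared. Symbols came from the GENCODE annotation in use here, which names 99.6% of the batch 1 identifiers and 94.1% of those of batch 2.

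In 8 libraries, 46.6% to 96.4% of genes with 500 or more counts equal another library of the group plus 1 to 10. These were left out. The 5-week libraries are Batch1 and the others Batch2, so 5 weeks and batch cannot be told apart.

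At 5.5 weeks, the genes kept by filterByExpr (minimum count 10) underwent TMM scaling and the quasi-likelihood F test of edgeR 4.0.16 (R 4.3.3), two-sided, with Benjamini-Hochberg adjustment over 16086 genes and a threshold of 0.05. DESeq2 1.42.0 and limma-voom (limma 3.58.1) were alternatives. The p-values measure the spread between libraries that the labels call biological replicates. At 5 and 7 weeks, with 1 library per group, log2 ratios of TMM-scaled CPM (prior count 2; CPM of at least 5 in 1 library) are given with no test. Intervals cover counting error only and not the spread between libraries. They are too narrow even for counting error where reads are not independent molecules.

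Members, lists and roles were chosen with earlier results of these data known, and the pericyte list after its values were seen. Values are given for the 3 most abundant, 2 lowest and 2 highest members of complexes I, III, IV and V at 5.5 weeks, all Sdh genes, the isoform families, the 3 lowest and 3 highest members at 5 and 7 weeks, and the lowest and highest gene of each other list. Cox5a, the members at the ends of a range, Ndufs6 and Sdhd at 7 weeks and the genes shown for their promoters or counted in groups of 5 or fewer are named beside these. A gene that this rule names and another at the end of a list's range are not reported here. Near copies were sought with blastn 2.17.0+ (at least 97% identity over 100 bases and 50% of the transcript). Levels per kilobase use the median length of a gene's annotated protein-coding transcripts, not weighted by their expression.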

Additional observations from a re-analysis of the deposited data

Results flagged for a closer look

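A few members went the other way at 5 weeks, each by little. At 5.5 weeks all 3 cuprizone libraries lay below both mock libraries for Ndufa8, Uqcrc1, Atp5e, Atp5f1 and Atp5k, and at 7 weeks the cuprizone library was lower, but at 5 weeks the ratio of cuprizone over mock was above 1. It was 1.07 for Ndufa8, 1.06 for Uqcrc1, 1.21 for Atp5e, 1.09 for Atp5f1 and 1.10 for Atp5k. The difference between weeks was not tested, and the 5-week libraries are a batch of their own with 1 usable library per group.

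The mRNAs of the mitochondrial genome, measured beside the nuclear members, had a ratio of summed levels of 0.280 at 5 weeks and 6.54 at 7 weeks, so they lay in opposite directions at the 2 times. This difference was not tested either, and each ratio rests on 1 library per group. The sums come almost wholly from 7 of the 13 mRNAs, since the others had almost no counts. The 7-week cuprizone library is also the one that stood apart.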

How the results depend on the processing

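The count of 0 members called lower at 5.5 weeks became 1 with DESeq2 (Ndufs6), 4 without a filter on low counts (Ndufb4, Ndufs6, Uqcr10 and Uqcr11), 1 with the 6 libraries as deposited (Uqcr11) and 1 with all 17 (Ndufs6); leaving out any 1 library kept it at 0. It was 18 with the replicate number as a block. Same-numbered libraries had correlations of 0.039 and -0.080. With so few mock libraries, each correlation with mock library 3 is the negative of that with mock library 1. These values therefore cannot tell whether the numbers pair libraries, and the labels do not say. The block is given for completeness. The median of -0.28 ranged from -0.39 to -0.19 with 1 library left out. The sign of some small values turned. Sdhc was 0.0030 with the 6 libraries as deposited and 0.024 with 17, Cox7a2l 0.0029 with 17, and Ndufs1 0.0042 with the replicate block. With 1 library left out, Sdhc ranged from -0.13 to 0.056, Cox7a2l from -0.12 to 0.019, Ndufs1 from -0.21 to 0.085, Atp5g2 from -0.13 to 0.017, Cox7b2 from -0.88 to 0.073 and Cox6b2 from -0.13 to 0.51. At 5 weeks the members at least 1.5-fold higher were 2 with CPM of at least 1 and 1 with summed deposited libraries, in place of 0. At 7 weeks the median was -0.48 and the count of lower members 25 with totals alone, the median -0.73 with summed libraries, and the higher members 4 with CPM of at least 1. The causes were not tested beyond the construction of each setting. Of the other values, 14 for single members at 5.5 weeks passed the threshold under an alternative. Depth limits the isoforms Cox6a2, Cox7a1, Cox7b2 and Cox8b.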
